A study of Rattus norvegicus with 12 samples.

Results

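Cardiac potassium channels and their accessory subunit Kcnip2 were examined in RNA-seq of neonatal rat ventricular myocytes (NRVMs). The genes were chosen by symbol: Kcnip2, Kcnd2, Kcnd3, Kcna5, Kcnh2, Kcnq1, Kcne1, Kcnj2, Kcnj3 and Kcnj11, which are 10 of the 18483 genes in the deposited matrices. All 10 were found. After a filter on low counts 9 of them were tested among 13967 genes, and Kcna5 was left out with at most 5 counts in any sample.

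Potassium currents end each cardiac action potential. In rodent ventricle the fast transient outward current is carried by Kv4 channels, whose pores are encoded by Kcnd2 and Kcnd3, and the subunit KChIP2, the product of Kcnip2, brings these channels to the membrane and sets how they inactivate. Delayed rectifiers (Kcnh2, and Kcnq1 with Kcne1) carry repolarising current later in the action potential, and inward rectifiers (Kcnj2, Kcnj3 and Kcnj11) hold the resting potential or respond to acetylcholine or ATP. Loss of transient outward current and of KChIP2 is a well-known part of electrical remodelling in hypertrophy.

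NRVMs of Sprague-Dawley rats fell into 4 groups with 3 biological replicates each. siNeg cells received a control siRNA and siSlc39a2 cells an siRNA against the zinc transporter Slc39a2. siNeg PE and siSlc39a2 PE cells were also given phenylephrine (PE), an α1-adrenergic agonist that induces hypertrophy, for 36 h beginning 12 h after transfection according to the sample labels, while the culture methods of the study give another duration. The myocytes came from neonates within days of birth, were purified on Percoll and were kept in medium with insulin, transferrin and selenium, and the knockdown rests on an siRNA of a single sequence. Values are given in CPM (counts scaled to the normalised library size) and, for levels between genes, in FPKM, which also takes gene length into account.

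Samples held between 24065539 and 28603854 expected counts, so that 3 counts corresponded to 0.102 to 0.118 CPM. The labels held in the genes that check them. The log2 fold change of Slc39a2 in siSlc39a2 against siNeg was -2.35 (adjusted p = 0.00098, edgeR), and PE raised Nppa, Nppb, Acta1 and Myh7 in siNeg cells by log2 fold changes of 4.63, 5.19, 1.93 and 0.57, while Myh6 fell by 0.95. The 10 cardiomyocyte markers summed to between 48300 and 70000 CPM. Markers of other cells were detected as well: the 10 fibroblast markers summed to a mean of 16700 CPM in siNeg, 10700 in siNeg PE, 5500 in siSlc39a2 cells and 4110 in siSlc39a2 PE. The 8 smooth muscle and pericyte markers, among them the potassium channel gene Kcnj8, summed to 2590, 1910, 1110 and 1790 CPM and the 9 macrophage markers present to 98.6, 47.7, 49.5 and 34.8 CPM in the same order. The 8 endothelial markers summed to between 18.3 and 25.9 CPM in any sample, the 5 atrial markers to between 71.2 and 221 CPM and the 7 neuronal and Schwann cell markers to between 7.66 and 15.5 CPM. None of these lists had a gene at 0 in all samples, and the part of these other cell types in the results was not tested. In bulk RNA, fewer cells of a type and less RNA per cell cannot be told apart.

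Most of the potassium channel genes that changed were lower, both with PE and after Slc39a2 knockdown. In siNeg PE against siNeg, Kcnip2, Kcnh2, Kcnj3 and Kcnj11 fell and Kcne1 rose, which is 4 of 9 lower and 1 of 9 higher, beside 25.7% lower and 24% higher among all genes tested. In siSlc39a2 against siNeg, Kcnip2, Kcnd2 and Kcnh2 fell (3 of 9) and none rose (0 of 9), beside 26.4% lower and 22.8% higher among all genes. The 3 of 9 lower was near the share of all genes. In siSlc39a2 PE against siNeg PE, 5 of 9 fell (Kcnip2, Kcnd2, Kcnh2, Kcnj11 and Kcnq1) and 0 rose, beside 28.1% and 29.2%. In siSlc39a2 PE against siSlc39a2, Kcnip2, Kcnd2, Kcnh2, Kcnj11 and Kcnj3 fell and Kcne1 rose, beside 29.3% lower and 30.7% higher among all genes. A gene was called changed at an adjusted p below 0.05 in edgeR's quasi-likelihood test. Kcne1 passed the filter on low counts only through its PE samples, so its part in the counts is a description. The median log2 fold change of the 9 genes was -0.35 for PE, -0.13 for knockdown, -0.29 for knockdown with PE and -0.96 for PE after knockdown, where the medians of all genes were -0.01, -0.02, 0.01 and 0.01.

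**Figure D1:**
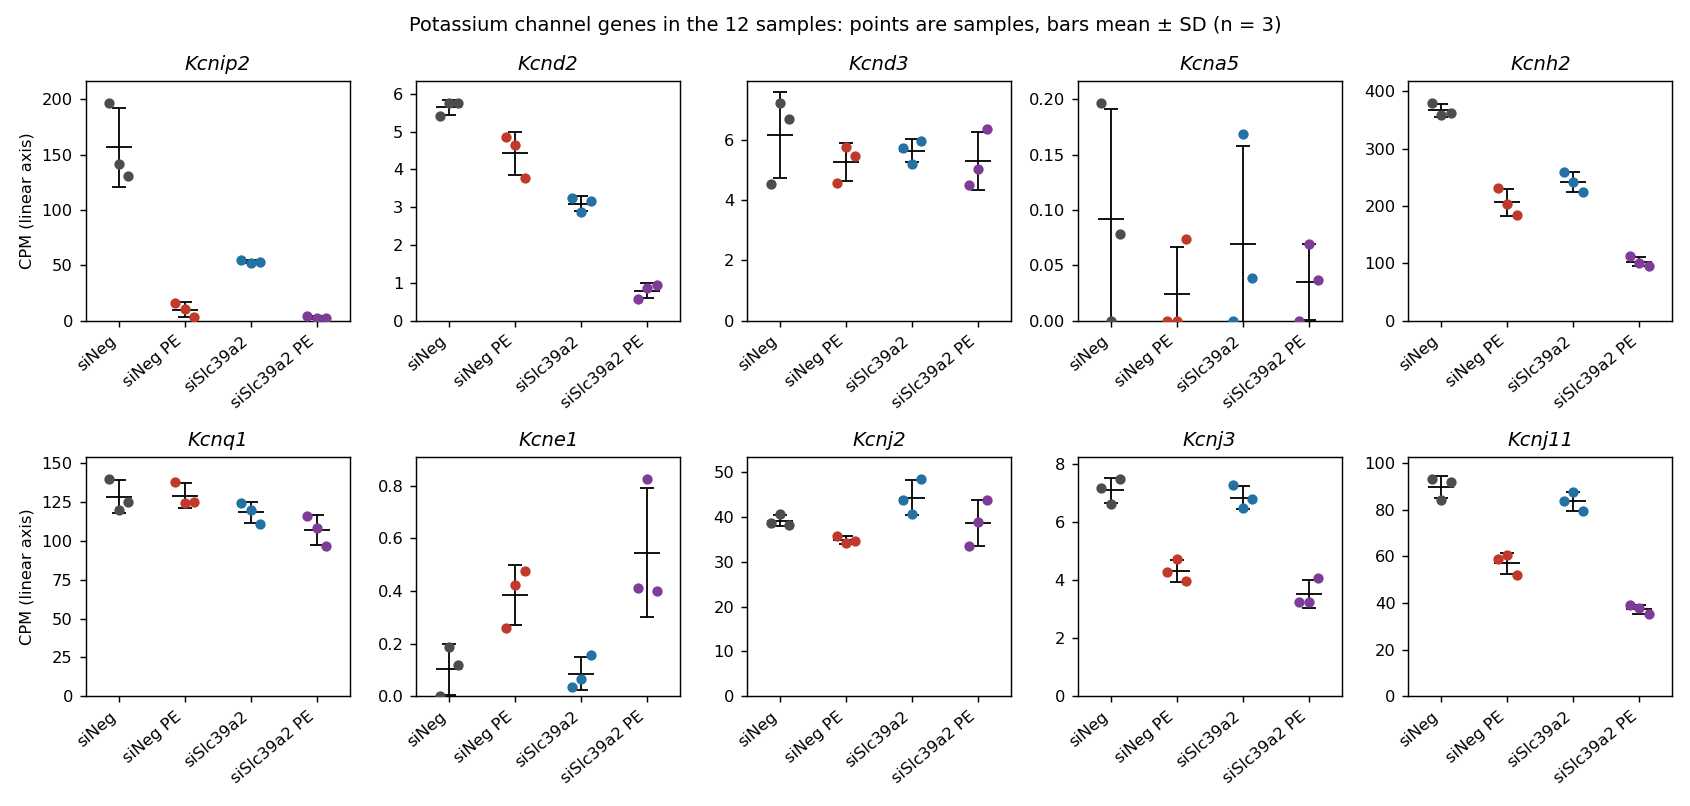
CPM of the 10 potassium channel genes on linear axes from 0 in the 12 samples. Points are samples, coloured by group, and black bars give the mean ± SD of 3 samples. Kcnip2 lies between 131 and 197 CPM in siNeg and between 2.07 and 4.4 CPM in siSlc39a2 PE, whereas the ranges of Kcnd3 overlap in all groups and Kcna5 stays at or under 0.197 CPM.

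With the further condition of the study, an absolute log2 fold change above 1, the counts were smaller. Kcnip2 and Kcne1 passed in siNeg PE against siNeg (2 of 9, beside 6.6% of all genes) and Kcnip2 in siSlc39a2 against siNeg (1 of 9, beside 9.78%). Kcnip2, Kcnd2 and Kcnh2 passed in siSlc39a2 PE against siNeg PE (3 of 9, beside 11.6%), and 5 of 9 passed in siSlc39a2 PE against siSlc39a2, beside 10.5%: Kcnip2, Kcnd2, Kcnh2, Kcnj11 and Kcne1. These comparisons share groups of samples with each other, so their counts are not independent of each other. Kcne1 was tested only because of its PE samples, so its part in these counts is a description.

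Kcnip2 changed more than any other of the 9 genes with PE. Its level was 197, 142 and 131 CPM in the 3 siNeg samples, 15.9, 10.9 and 3.12 CPM in siNeg PE, 54.9, 52.3 and 52.9 CPM in siSlc39a2, and 4.4, 2.14 and 2.07 CPM in siSlc39a2 PE. Every PE sample lay below every sample without PE, and the siNeg PE and siSlc39a2 PE groups overlapped. PE lowered Kcnip2 in siNeg cells by 15.7-fold (log2 fold change -3.97, standard error 0.40, adjusted p = 1.14e-05, edgeR). PE lowered it after knockdown by 18.7-fold (-4.22, standard error 0.44, adjusted p = 8.06e-06, edgeR).

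Slc39a2 knockdown lowered Kcnip2 too, by 2.94-fold without PE (log2 fold change -1.55, standard error 0.35, adjusted p = 0.0029, edgeR) and by 3.49-fold with PE (-1.80, standard error 0.46, adjusted p = 0.00481, edgeR). Cells with both knockdown and PE had 54.8-fold less Kcnip2 than siNeg cells (log2 fold change -5.78, standard error 0.46). Knockdown with PE less knockdown without it came to -0.25 on the log2 scale with a standard error of 0.58 (adjusted p = 0.892, edgeR), so a difference between them was not detectable. Over the same samples the summed cardiomyocyte markers had means of 59800 CPM in siNeg, 66800 in siNeg PE, 49000 in siSlc39a2 cells and 67100 in siSlc39a2 PE. Of the 10 markers 3 rose and 4 fell with PE in siNeg cells, and 0 rose and 4 fell with knockdown. Their part in the result was not tested.

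Some reads of Kcnip2 were divided between rows of the matrix. Expected counts are estimates that split reads matching several genes, and the counts of 8 of the 10 genes were whole numbers in every sample, the exceptions being Kcnip2 and Kcnd2. Kcnip2 became whole in all 12 samples, within 0.03 counts, when the rows LOC100911951 and Armh3 were added, and Kcnd2 became whole, within 0.02 counts, when LOC102556178 was added. The share of the summed Kcnip2 and LOC100911951 counts that stood in the Kcnip2 row was 72.1 to 75.9% in siNeg and 77.1 to 83.0% in siSlc39a2 cells. It was 78.7, 80.2 and 35.2% in the 3 siNeg PE samples and 99.6, 64.7 and 62.1% in the 3 siSlc39a2 PE samples, so the division varied most where few reads were left.

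In the PE groups the sum of both rows varied less between replicates than the Kcnip2 row did. It came to 6563.03, 5125.47 and 4625.25 counts in siNeg, 549, 385.52 and 240 in siNeg PE, 1921.98, 2002 and 1636.04 in siSlc39a2, and 118, 96 and 92.6 in siSlc39a2 PE. On the sum, no group overlapped another. The log2 fold changes of the sum were -3.90 for PE (standard error 0.23), -1.68 for knockdown (0.21), -1.94 for knockdown with PE (0.26) and -4.16 for PE after knockdown (0.26), with adjusted p at most 5.26e-05 from edgeR, and the difference between the knockdown effects was -0.26 (standard error 0.33, adjusted p = 0.773, edgeR).

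**Figure D2:**
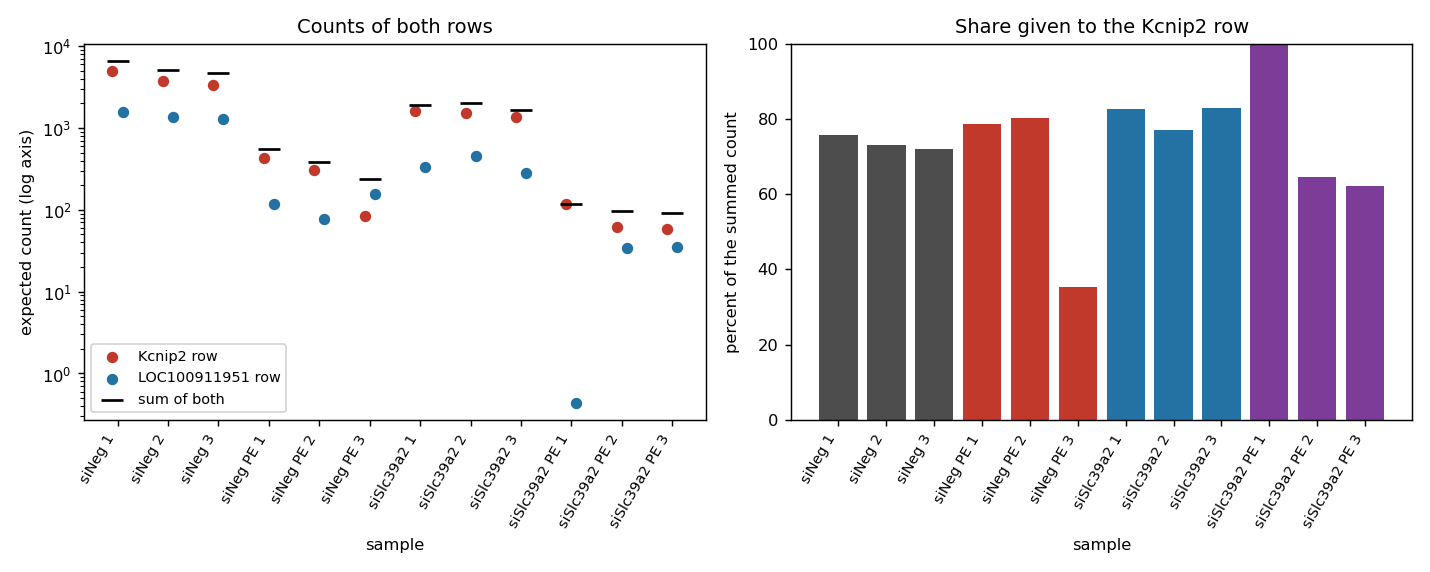
Expected counts of the Kcnip2 row, the LOC100911951 row and their sum on a log axis (left), and the percent of the sum that stood in the Kcnip2 row (right), for each of the 12 samples. The sum falls from 4625.25 to 6563.03 counts in siNeg to 92.6 to 118 in siSlc39a2 PE, and the share is lowest in siNeg PE sample 3, at 35.2%.

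The Kv4 pore genes Kcnd2 and Kcnd3 differed from each other. Kcnd2, which encodes Kv4.2, was at 5.41, 5.76 and 5.75 CPM in siNeg, 4.86, 4.64 and 3.78 in siNeg PE, 3.25, 2.88 and 3.16 in siSlc39a2, and 0.559, 0.862 and 0.945 in siSlc39a2 PE. The 4 groups did not overlap. PE alone gave a log2 fold change of -0.35 that did not pass (standard error 0.16, adjusted p = 0.0855, edgeR), although limma on quantile-normalised log2(FPKM + 0.1) gave -0.48 (adjusted p = 0.0213).

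Knockdown lowered Kcnd2 by 1.82-fold without PE (log2 fold change -0.87, standard error 0.16, adjusted p = 0.000789, edgeR) and by 5.57-fold with PE (log2 fold change -2.48, standard error 0.19, adjusted p = 3.14e-07, edgeR). The knockdown effect was therefore larger with PE: the difference on the log2 scale was -1.61 (standard error 0.25, adjusted p = 0.00336, edgeR), and -1.66 (standard error 0.23, adjusted p = 0.00154, edgeR) with the LOC102556178 row added. Between 84.1 and 95.6% of that sum stood in the Kcnd2 row. In limma on log2(FPKM + 1), a scale that understates fold changes of low levels, the difference was -0.31 and did not pass (adjusted p = 0.0746).

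Kcnd3, which encodes Kv4.3, was at 4.54, 7.24 and 6.7 CPM in siNeg, 4.57, 5.77 and 5.47 in siNeg PE, 5.74, 5.22 and 5.97 in siSlc39a2, and 4.51, 5.04 and 6.36 in siSlc39a2 PE. All groups overlapped. Its log2 fold changes were -0.23 for PE, -0.13 for knockdown, 0.01 for knockdown with PE and -0.09 for PE after knockdown, each with a standard error of 0.18, and none passed (adjusted p from 0.315 to 0.969, edgeR). Per gene length, Kcnd2 was above Kcnd3 in siNeg (1.36 ± 0.0781 against 0.89 ± 0.233 FPKM, SD, n = 3) and below it in siSlc39a2 PE (0.2 ± 0.0529 against 0.807 ± 0.165 FPKM, SD, n = 3), without overlap in either group.

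The remaining Kv4 pore gene is Kcnd1, which encodes Kv4.1 and belongs to the other potassium channel genes described below. It is named here after its values were seen. It averaged 1.45 ± 0.143 FPKM in siNeg, 1.24 ± 0.05 in siNeg PE, 0.977 ± 0.0306 in siSlc39a2 cells and 0.723 ± 0.186 in siSlc39a2 PE (SD, n = 3), which was not lower on average than Kcnd2 in any group. Kcnd1 fell with knockdown without PE (log2 fold change -0.72, standard error 0.17, adjusted p = 0.00376, edgeR) and with PE (-0.79, standard error 0.17, adjusted p = 0.00199, edgeR), and PE gave -0.31 in siNeg cells (standard error 0.17, adjusted p = 0.139, edgeR).

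The windows before the start sites of Kcnip2 and Kcnd2 are shown because, of the 9 tested genes, these carried the strongest falls after combined knockdown and PE. They are the 250 bases upstream of the RefSeq start in GRCr8, a later build than that of the files, at chr1:254613899-254614148 on the minus strand and chr4:50742235-50742484 on the plus strand, and capitals mark GC boxes (GGGCGG).
Kcnip2: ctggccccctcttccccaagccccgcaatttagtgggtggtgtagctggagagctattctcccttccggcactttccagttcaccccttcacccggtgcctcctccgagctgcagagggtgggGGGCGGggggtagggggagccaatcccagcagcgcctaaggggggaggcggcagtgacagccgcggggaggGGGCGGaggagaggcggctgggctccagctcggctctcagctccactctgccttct
Kcnd2: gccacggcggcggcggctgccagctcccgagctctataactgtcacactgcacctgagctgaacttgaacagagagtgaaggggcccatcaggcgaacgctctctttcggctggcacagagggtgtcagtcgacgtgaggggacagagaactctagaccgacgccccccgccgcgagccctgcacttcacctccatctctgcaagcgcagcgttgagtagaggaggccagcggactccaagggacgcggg
The Kcnip2 window is 68% G and C and holds 2 GC boxes, and the Kcnd2 window is 64% G and C and holds 0. Windows of 6 of the 10 genes were matched. On both strands, GGGCGG is found in 30.5% of 33469 rat windows of this length and CACCC in 49.2%, and the CACCC letters occur 4 times before Kcnip2 and 1 time before Kcnd2. The E-box CACGTG (5.59% of windows), AGATAA (10.3%), TATAAA (12.9%) and the core of the interferon-stimulated response element (3.41%) were in neither window. Overlapping matches were counted, and no motif in this search contains another.

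Kcnip2 transcript was set against the sum of Kcnd2 and Kcnd3, since KChIP2 acts on the channels these encode. The ratio of Kcnip2 to Kcnd2 plus Kcnd3 in FPKM was 45.1, 25.9 and 25.2 in siNeg, 3.93, 2.5 and 0.802 in siNeg PE, 14.9, 16.2 and 14.7 in siSlc39a2, and 2.54, 1.03 and 0.805 in siSlc39a2 PE. Every sample with PE was below every sample without it. PE lowered the ratio 13.6-fold over both transfections (mean log2 difference -3.76; exact permutation test within transfections, two-sided p = 0.005, the smallest that its 400 regroupings allow), with -3.96 in siNeg and -3.57 in siSlc39a2 cells. With Kcnd1 added to the denominator, chosen after the data were seen, the difference was -3.83 (exact permutation p = 0.005).

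Knockdown gave a log2 difference of the ratio of -0.83 (exact permutation test within PE states, two-sided p = 0.095), with -1.02 without PE and -0.63 with PE. Its result turned on the choice between Kcnd2 and Kcnd3. With Kcnd2 alone the difference was 0.13 (exact permutation p = 0.815) and with Kcnd3 alone it was -1.51 (exact permutation p = 0.01). With Kcnd1 added to both it was -0.82 (exact permutation p = 0.075). With the divided rows summed it was -0.93 (exact permutation p = 0.01), and without siNeg PE sample 3 it was -1.15 (exact permutation p = 0.015).

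**Figure D3:**
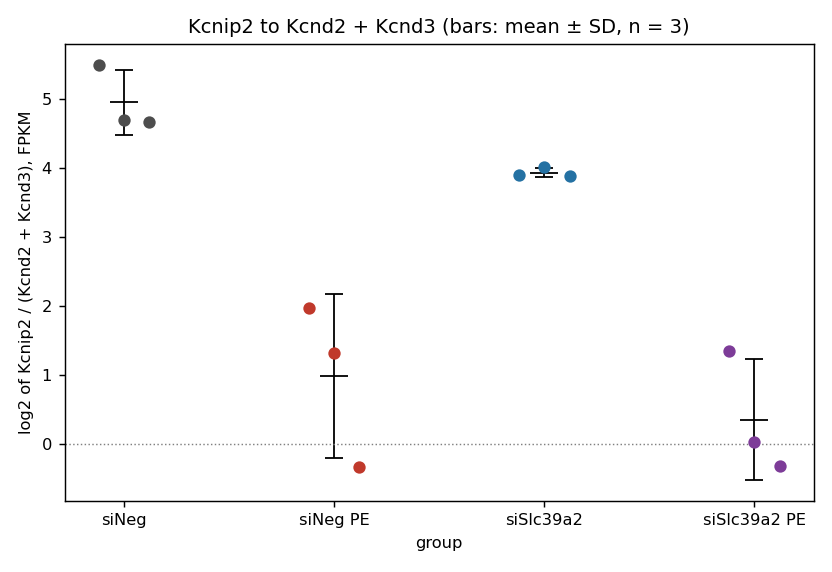
Log2 of the ratio of Kcnip2 to Kcnd2 plus Kcnd3, from FPKM, by group. Points are samples and bars give the mean ± SD of 3 samples. The PE samples lie between -0.32 and 1.97 and the samples without PE between 3.88 and 5.49.

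Kcna5 encodes Kv1.5, a channel of the ultrarapid delayed rectifier current. Its counts were 5, 0 and 2 in siNeg, 0, 0 and 2 in siNeg PE, 0, 5 and 1 in siSlc39a2 and 0, 2 and 1 in siSlc39a2 PE. At this depth its level was at or near the 3 counts taken as the floor in all 12 samples, and no comparison was made.

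Among the delayed rectifiers, Kcnh2 fell and Kcnq1 stayed close to its level. Kcnh2 encodes the hERG channel of the rapid delayed rectifier current and had the highest FPKM of the 10 genes in siNeg, at 94.2 ± 1.24 (SD, n = 3). It was at 380, 359 and 362 CPM in siNeg, 232, 203 and 185 in siNeg PE, 260, 242 and 225 in siSlc39a2, and 112, 101 and 96 in siSlc39a2 PE. Only siNeg PE and siSlc39a2 overlapped among the groups.

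The log2 fold change of Kcnh2 was -0.83 for PE (standard error 0.09, adjusted p = 1.47e-05, edgeR) and -0.60 for knockdown (standard error 0.09, adjusted p = 9.83e-05, edgeR). It was -1.01 for knockdown with PE (standard error 0.09, adjusted p = 1.05e-06, edgeR) and -1.24 for PE after knockdown (adjusted p = 2.74e-07, edgeR). Together, PE and knockdown left Kcnh2 3.57-fold below siNeg. The difference between the knockdown effects, -0.41 (standard error 0.12), did not pass in edgeR (adjusted p = 0.0926) and passed in DESeq2 (-0.43, adjusted p = 0.0282).

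Kcnq1 encodes the pore of the slow delayed rectifier channel. Its samples ranged from 120 to 140 CPM in siNeg, 124 to 138 in siNeg PE, 111 to 124 in siSlc39a2 and 96.6 to 116 in siSlc39a2 PE. The log2 fold changes were 0.01 for PE (standard error 0.08, adjusted p = 0.939, edgeR) and -0.12 for knockdown (0.08, adjusted p = 0.263, edgeR). PE after knockdown gave -0.15, which did not pass (standard error 0.08, adjusted p = 0.131, edgeR). In siSlc39a2 PE against siNeg PE it fell by 1.21-fold (log2 fold change -0.27, standard error 0.08, adjusted p = 0.0121, edgeR), a call that was lost without siNeg PE sample 1 (-0.22, adjusted p = 0.0542) or without siSlc39a2 PE sample 3 (-0.21, adjusted p = 0.0565).

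Kcne1, the accessory subunit of the slow delayed rectifier, was the only one of the 9 genes that rose in any comparison, and it did so at very low counts. It had 0, 5 and 3 counts in siNeg, 7, 12 and 13 in siNeg PE, 1, 2 and 4 in siSlc39a2, and 11, 24 and 11 in siSlc39a2 PE. Every PE sample was above every sample without PE. The samples without PE, at 5 counts or fewer, would not have passed the filter on low counts, so Kcne1 was tested only because of its PE samples and its count among the changed genes is a description. PE raised it by 3.61-fold in siNeg cells (log2 fold change 1.85, standard error 0.67, adjusted p = 0.0348, edgeR) and by 6.28-fold after knockdown (2.65, standard error 0.65, adjusted p = 0.00352, edgeR).

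In summed counts the ratio of PE to no PE for Kcne1 was 3.72 in siNeg cells (95% exact interval 1.68 to 9.35) and 6.63 after knockdown (2.98 to 17.4), where the intervals cover counting error only. The call in siNeg cells was lost without siNeg sample 1 (log2 fold change 1.30), siNeg sample 3 (1.95), siNeg PE sample 2 (1.78) or siNeg PE sample 3 (1.68), with adjusted p from 0.0674 to 0.102. Knockdown gave log2 fold changes of -0.29 without PE (standard error 0.87) and 0.50 with PE (standard error 0.50), and neither passed (adjusted p = 0.796 and 0.408, edgeR).

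**Figure D4:**
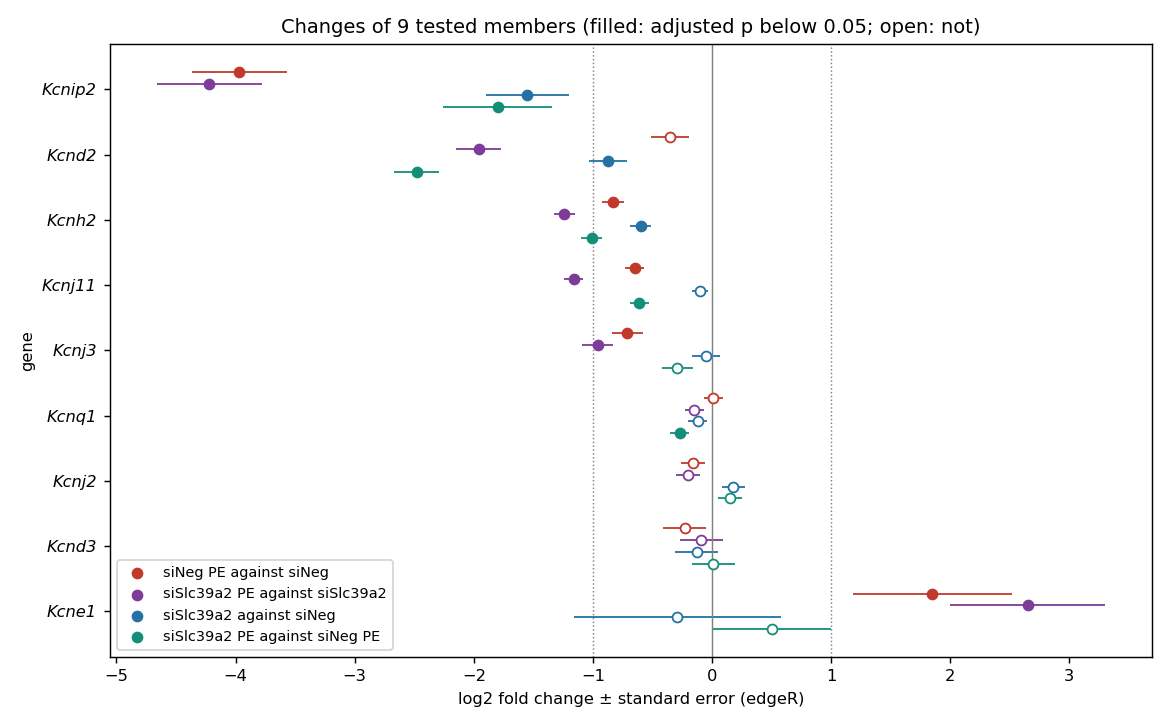
Log2 fold changes with standard errors from edgeR for the 9 tested genes in 4 comparisons, with dotted lines at a log2 fold change of 1 in either direction. Filled points passed at an adjusted p below 0.05. Kcnip2 lies at -3.97 and -4.22 for PE, Kcnd2 at -2.48 for knockdown with PE against -0.87 without, and Kcne1 at 1.85 and 2.65 for PE with wide errors.

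The inward rectifiers did not move alike. Kcnj11 encodes Kir6.2, the pore of the ATP-sensitive channel, and was at 93.4, 84.4 and 91.7 CPM in siNeg, 58.7, 60.6 and 52.0 in siNeg PE, 83.8, 87.5 and 79.4 in siSlc39a2, and 39.0, 37.8 and 35.3 in siSlc39a2 PE. The groups without PE overlapped with each other, and siSlc39a2 PE lay below all other samples. PE lowered Kcnj11 by 1.57-fold in siNeg cells (log2 fold change -0.65, standard error 0.08, adjusted p = 3e-05, edgeR) and by 2.24-fold after knockdown (-1.16, standard error 0.08, adjusted p = 1.53e-07, edgeR).

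Knockdown changed Kcnj11 by -0.10 without PE (standard error 0.07, adjusted p = 0.268, edgeR) and by -0.61 with PE (standard error 0.08, adjusted p = 2.62e-05, edgeR). These effects differed by -0.51 (standard error 0.11, adjusted p = 0.0195, edgeR). The call of the difference was lost in 6 of the 12 fits that left out a sample, each time with a value from -0.52 to -0.46 and an adjusted p from 0.0518 to 0.0669.

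Kcnj3 encodes Kir3.1, a subunit of the channel that acetylcholine opens. It was at 7.15, 6.63 and 7.49 CPM in siNeg, 4.27, 4.71 and 3.96 in siNeg PE, 7.26, 6.47 and 6.78 in siSlc39a2, and 3.24, 3.24 and 4.07 in siSlc39a2 PE. PE samples were below all samples without PE, and the groups with the same PE state overlapped. PE lowered it by 1.64-fold in siNeg cells (log2 fold change -0.71, standard error 0.13, adjusted p = 0.000713, edgeR) and by 1.94-fold after knockdown (-0.96, standard error 0.13, adjusted p = 5.68e-05, edgeR), and knockdown gave -0.05 without PE (adjusted p = 0.748) and -0.29 with PE (adjusted p = 0.0713), neither of which passed.

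Kcnj2 encodes Kir2.1, a pore of the inward rectifier current of ventricle. Its samples ranged from 38.1 to 40.5 CPM in siNeg, 34.1 to 35.8 in siNeg PE, 40.6 to 48.5 in siSlc39a2 and 33.4 to 43.7 in siSlc39a2 PE. None of its log2 fold changes passed: -0.16 for PE, 0.18 for knockdown, 0.15 for knockdown with PE and -0.20 for PE after knockdown, each with a standard error of 0.10 (adjusted p from 0.0921 to 0.199, edgeR). Without siSlc39a2 PE sample 1 the knockdown effects were 0.22 (adjusted p = 0.0328) and 0.24 (adjusted p = 0.0293).

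In siSlc39a2 PE against siNeg, which joins both changes, 6 of 9 genes fell and 1 rose, beside 37.3% lower and 38% higher among all genes. Past the study's threshold were 6 of 9, beside 29.4%. Kcne1 is among them and was tested only because of its PE samples. The log2 fold changes were -5.78 for Kcnip2, -2.83 for Kcnd2, -1.84 for Kcnh2, -1.27 for Kcnj11, -1.01 for Kcnj3 and -0.27 for Kcnq1, which all fell, and 2.36 for Kcne1. Kcnd3 (-0.22, adjusted p = 0.291, edgeR) and Kcnj2 (-0.02, adjusted p = 0.889) did not pass, and the call of Kcnq1 was lost without siSlc39a2 PE sample 3 (-0.20, adjusted p = 0.0515). The median of the 9 genes was -1.01, where that of all genes was 0.

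The difference between knockdown with and without PE was called lower for 2 of 9 genes, Kcnd2 and Kcnj11, and higher for 0 of 9, beside 1.88% lower and 1.73% higher among all genes. Kcnd2 also passed the threshold on fold change (1 of 9, beside 0.988%).

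The order of the genes by FPKM changed with the groups. In siNeg it was Kcnh2 at 94.2, Kcnip2 at 69.9, Kcnq1 at 41.5, Kcnj11 at 28.9, Kcnj2 at 5.06, Kcnj3 at 3.74, Kcnd2 at 1.36, Kcnd3 at 0.89, Kcne1 at 0.143 and Kcna5 at 0.05 FPKM on average, and of neighbours in this order the ranges of Kcne1 and Kcna5 alone overlapped. In siSlc39a2 PE, Kcnq1 led at 36.7 FPKM before Kcnh2 at 27.9 and Kcnj11 at 12.8, and Kcnip2 stood at 1.35 FPKM, with a range that overlapped those of Kcnj3 at 1.93 and Kcnd3 at 0.807. In siNeg PE, Kcnip2 at 4.67 FPKM overlapped Kcnj2 at 5.34 and Kcnj3 at 2.38.

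Across the 12 samples, the log2 CPM of Kcnip2 correlated with that of Kcnj11 at a Pearson r of 0.955, of Kcnh2 at 0.933, of Kcnj3 at 0.931 and of Kcnd2 at 0.73. These are descriptions over samples that form 4 groups, so each r reflects the group means. Among 11747 other genes with a mean log2 CPM above 1, LOC100911101 (r = 0.993), Mb (0.989), Bzw2 (0.988), Tada3 (0.987) and Eci1 (0.985) had patterns most like that of Kcnip2. Mb encodes myoglobin, the oxygen-binding protein of muscle, and averaged 3870 CPM in siNeg, 1350 in siNeg PE, 2500 in siSlc39a2 cells and 795 in siSlc39a2 PE. Eci1, an enzyme of mitochondrial fatty acid oxidation, averaged 194, 88.2, 135 and 59.7 CPM. Among the genes most like Kcne1, with the low counts that it had, were Gas2l3 (0.962), Btbd8 (0.957), Spata13 (0.953) and Glcci1 (0.953), and Gas2l3 averaged 1.69, 5.47, 1.3 and 6.64 CPM in the same order of groups.

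Other potassium channel genes were taken from a list of 53, of which 51 were in the files and 36 were tested. With PE in siNeg cells 15 of the 36 fell and 2 rose, beside 25.7% lower and 24% higher among all genes. After knockdown 11 fell and 2 rose (26.4% and 22.8% of all genes), with knockdown in PE 16 fell and 3 rose (28.1% and 29.2%), and with PE after knockdown 17 fell and 3 rose (29.3% and 30.7%). The medians were -0.46, -0.32, -0.30 and -0.49. Past the study's threshold were 3, 3, 5 and 3 of 36, beside 6.6%, 9.78%, 11.6% and 10.5% of all genes, so these counts were near those shares. In siSlc39a2 PE against siNeg 14 of 36 passed it, beside 29.4%. There 20 fell and 3 rose, beside 37.3% lower and 38% higher among all genes, and the median was -0.69. Kcnt1, Kcnh1, Kcnip4, Kcnmb4 and Dpp6 had few counts in at least 1 group and passed the filter through the groups where they were higher. The counts of genes changed are therefore a description.

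With PE in siNeg cells, Dpp6 and Kcnip4 had the largest falls of these 36 genes. Both had few counts and passed the filter through the groups where they were higher, so their changes are a description. Dpp6, a transmembrane partner of Kv4, had 45, 48 and 53 counts in siNeg, 27, 18 and 8 in siNeg PE, 31, 47 and 35 in siSlc39a2 and 6, 3 and 7 in siSlc39a2 PE. PE lowered it by 2.95-fold (log2 fold change -1.56, standard error 0.34, adjusted p = 0.00283, edgeR), knockdown with PE by 3.27-fold (-1.71, standard error 0.45, adjusted p = 0.00611, edgeR), and the combination by 9.64-fold (-3.27). Kcnip4, a relative of Kcnip2, fell with PE by 2.74-fold (log2 fold change -1.45, standard error 0.46, adjusted p = 0.0195, edgeR), from 14 to 28 counts to 6 to 13. It fell with PE after knockdown by 2.5-fold (-1.32, standard error 0.48, adjusted p = 0.03, edgeR), from 18 to 19 counts to 3 to 14. Knockdown did not pass for Kcnip4 without PE (-0.38, adjusted p = 0.472, edgeR) or with PE (-0.25, adjusted p = 0.711), nor for Dpp6 without PE (-0.49, adjusted p = 0.216). Kcnip3, a further relative named after its values were seen, did not pass with PE (-0.56, adjusted p = 0.0871, edgeR). It fell with knockdown without PE (-0.82, adjusted p = 0.0202) and with PE (-0.75, adjusted p = 0.0368).

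Kcnt1, a sodium-activated potassium channel, rose after knockdown. It had 2, 0 and 3 counts in siNeg, 4, 2 and 5 in siNeg PE, 204, 213 and 166 in siSlc39a2 and 121, 115 and 121 in siSlc39a2 PE. In summed counts the ratio of siSlc39a2 to siNeg was 107 (95% exact interval 45.5 to 330) and that of siSlc39a2 PE to siNeg PE was 32.3 (17.8 to 65.2), where the intervals cover counting error only. Kcnt1 passed the filter only through its knockdown samples (adjusted p = 9.53e-09 and 6.28e-08, edgeR).

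Kcnh1, an ether-a-go-go channel, went the other way with knockdown, from 43, 45 and 37 counts in siNeg to 13, 22 and 15 in siSlc39a2 (log2 fold change -1.44, standard error 0.32, adjusted p = 0.00264, edgeR). Under PE, knockdown took Kcnh1 from 33, 24 and 17 counts in siNeg PE to 2, 1 and 5 in siSlc39a2 PE (adjusted p = 8.37e-05, edgeR). In summed counts the ratio of siNeg PE to siSlc39a2 PE was 9.31 (95% exact interval 4.48 to 22.4, counting error only). Kcnh1 passed the filter only through groups where it was higher. Kcnab2, a Kv beta subunit, fell with knockdown by 2.37-fold (log2 fold change -1.25, standard error 0.19, adjusted p = 0.000137, edgeR). The silent subunit Kcns3 fell by 2.11-fold with PE (log2 fold change -1.08, adjusted p = 0.00508, edgeR) and rose by 2.31-fold with knockdown under PE (1.21, adjusted p = 0.00161, edgeR). Kcnk5, a background channel of the K2P family, fell by 2.07-fold with knockdown under PE (log2 fold change -1.05, adjusted p = 0.000509, edgeR). Kcnmb4, a subunit of calcium-activated channels, had 8 to 11 counts in siNeg and 1 to 4 in siSlc39a2 PE. That is 3.38-fold lower (-1.76, standard error 0.6, adjusted p = 0.0168, edgeR). Kcnmb4 passed the filter only through groups where it was higher, so its fall is a description.

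**Figure D5:**
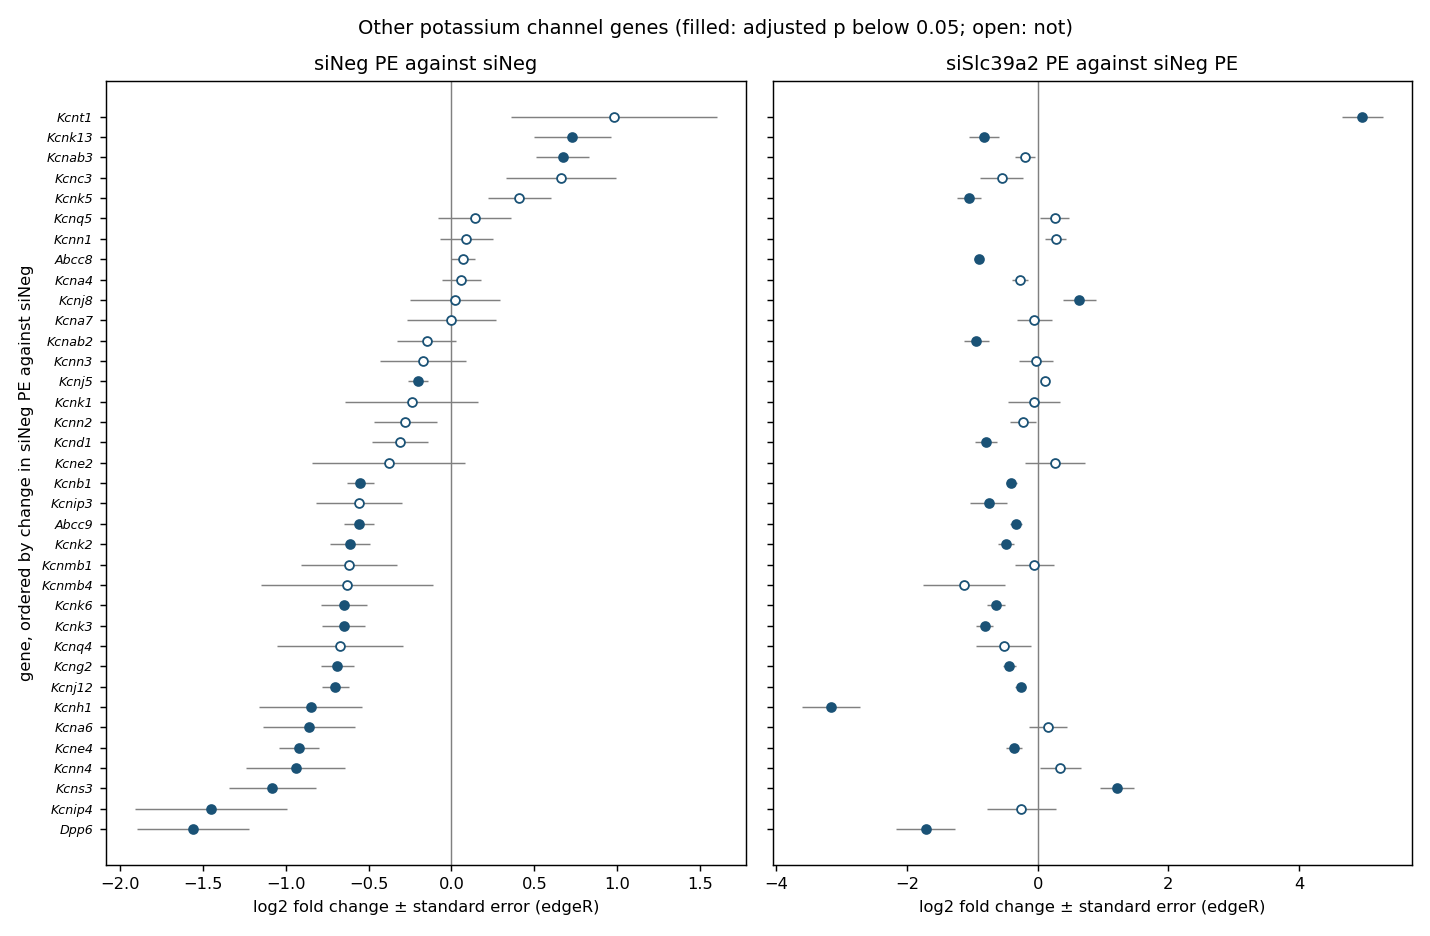
Log2 fold changes with standard errors from edgeR for the 36 other potassium channel genes tested, ordered by their change in siNeg PE against siNeg (left), and the same genes in siSlc39a2 PE against siNeg PE (right). Filled points passed at an adjusted p below 0.05. On the left 15 genes are called lower and 2 higher, and on the right 16 lower and 3 higher, with Kcnt1 at 4.97 and Kcnh1 at -3.16.

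Of these 36 genes, Abcc8 was the only one whose knockdown effect was called different with and without PE. This is 1 of 36 lower and 0 higher, beside 1.88% lower and 1.73% higher among all genes, so the count was near the share of all genes. Abcc8 encodes SUR1, a regulatory subunit that joins Kir6.2, the Kcnj11 product. It averaged 88.0 ± 4.84 CPM in siNeg, 92.2 ± 4.52 in siNeg PE, 81.0 ± 6.08 in siSlc39a2 cells and 49.5 ± 2.4 in siSlc39a2 PE (SD, n = 3). The log2 fold change of knockdown was -0.12 without PE (adjusted p = 0.198, edgeR) and -0.90 with PE (adjusted p = 6.42e-07, edgeR), a difference of -0.78 (standard error 0.10, adjusted p = 0.00115, edgeR). Abcc9, which encodes SUR2, fell with PE by 1.47-fold (log2 fold change -0.56, adjusted p = 0.000299, edgeR) and Kcnj12, a further Kir2 pore, by 1.63-fold (-0.70, adjusted p = 4.3e-05, edgeR). Kcnj12 averaged 14.8 FPKM in siNeg, 10.3 in siNeg PE, 15.8 in siSlc39a2 cells and 8.86 in siSlc39a2 PE. Kcnj2 averaged 5.06, 5.34, 6.73 and 5.59 FPKM in the same order. Abcc8, Abcc9 and Kcnj12 were chosen after their values were seen.

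Genes that are known to set the level or position of cardiac potassium channels formed a list of 16, of which 15 were in the files and tested. With PE 5 of 15 fell and 2 rose, beside 25.7% lower and 24% higher among all genes. With knockdown 3 fell and 4 rose, beside 26.4% and 22.8%. With knockdown under PE 6 fell and 5 rose, beside 28.1% and 29.2%, and with PE after knockdown 8 fell and 4 rose, beside 29.3% and 30.7%. Their medians were -0.07, 0.04, -0.04 and -0.30. In siSlc39a2 PE against siNeg 8 fell and 6 rose, beside 37.3% and 38%, with a median of -0.25.

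Klf15, a transcription factor known to drive rhythmic expression of Kcnip2, was at 29.4, 26.4 and 23.8 CPM in siNeg, 19.5, 15.9 and 14.2 in siNeg PE, 15.5, 15.0 and 15.9 in siSlc39a2 and 7.35, 6.86 and 7.74 in siSlc39a2 PE. Its samples in siNeg were all higher than in any other group and those in siSlc39a2 PE all lower. It fell by 1.61-fold with PE (log2 fold change -0.68, standard error 0.11, adjusted p = 0.000435, edgeR), by 1.72-fold with knockdown (-0.78, standard error 0.11, adjusted p = 0.000106, edgeR) and by 2.26-fold with knockdown under PE (-1.18, standard error 0.12, adjusted p = 4.64e-06, edgeR).

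Irx3 and Irx4, homeobox factors of the ventricle, were the regulators whose knockdown effect differed with PE, by -0.52 (adjusted p = 0.03, edgeR) and -0.64 (adjusted p = 0.00379, edgeR). This is 2 of 15 lower and 0 higher, beside 1.88% lower and 1.73% higher among all genes. Irx4 was named after its value was seen. Irx3 was at 117, 114 and 115 CPM in siNeg, 82.1, 70.6 and 68.7 in siNeg PE, 114, 105 and 108 in siSlc39a2 and 54.1, 44.4 and 46.5 in siSlc39a2 PE. PE after knockdown lowered it by 2.25-fold (log2 fold change -1.17, standard error 0.09, adjusted p = 3.43e-07, edgeR).

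Rnf207, a ubiquitin ligase known to act on hERG, fell by 2.17-fold with PE after knockdown (log2 fold change -1.12, standard error 0.09, adjusted p = 1.33e-06, edgeR) and by 2.92-fold in siSlc39a2 PE against siNeg (-1.54). The kinase Sgk1 rose by 2.09-fold with knockdown (log2 fold change 1.07, standard error 0.08, adjusted p = 2.78e-07, edgeR). Akap9, the anchoring protein of the slow delayed rectifier channel, rose by 2.06-fold with knockdown under PE (log2 fold change 1.05, standard error 0.17, adjusted p = 0.000175, edgeR). The circadian gene Clock, whose counts were not whole, rose by 2.12-fold with PE after knockdown (log2 fold change 1.09, standard error 0.19, adjusted p = 0.000418, edgeR).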

How the data were processed

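RNA-seq of NRVMs in 4 groups of 3 samples was analysed from processed values. The deposited matrices hold expected counts that were not normalized, where a read that fits several genes is divided between them, and FPKM of the same 18483 genes, which are scaled by the authors to gene length and depth. The submitters' processing notes name the build Rnor_6.0 and the tools HISAT and Bowtie2. The counting program and the annotation are not given in the sources used here. Of the genes, 70.0% had whole counts in every sample. The division of reads can move the level of a gene that has a near-identical copy.

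The expected counts were rounded. The filter filterByExpr (edgeR 4.0.16 in R 4.3.3) left 13967 genes, counts were normalized by TMM, and all 12 samples were fitted in 1 model with 8 residual degrees of freedom. The test was the quasi-likelihood F-test, with adjustment by Benjamini and Hochberg over all genes tested. Standard errors are the absolute log2 fold change divided by the square root of F. The interaction is the effect of knockdown under PE minus its effect without PE. The ratio of Kcnip2 to Kcnd2 plus Kcnd3 was tested by an exact permutation test within strata (SciPy 1.17.1). Correlations used log2 CPM with a prior count of 2.

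Alternatives were RLE size factors, DESeq2 1.42.0, no filter on low counts, fits on the compared groups alone, the replicate block, limma 3.58.1 with quantile normalization of log2(FPKM + 1), of log2(FPKM + 0.1) or of log2(count + 1), and each sample left out in turn. Adding the rows that share reads, and adding Kcnd1 to the ratio, were chosen after seeing the data. The fits were tested on simulated data. The members and gene lists were chosen with earlier results of these data known. Genes named beside the members were up to 5 of the other potassium channel genes and up to 3 of the regulators per comparison, those with the largest changes past an adjusted p of 0.05 and an absolute log2 fold change of 1 without overlap of the groups, the label checks, and the 5 genes most correlated with Kcnip2 and with Kcne1, of which 1 is not reported here.

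Replicates differed beyond counting error (chi-square divided by its degrees of freedom from 4.69 to 34.1), and none was counted as a copy. The study names independent biological replicates without saying whether cultures came from separate litters, so p-values measure the spread between these samples. Intervals and the floor of 3 counts cover counting error only.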

Additional observations from a re-analysis of the deposited data

Results flagged for a closer look

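The knockdown effect on Kcnd2 differed between cells with and without PE, by a log2 fold change of -1.61 in the test of the difference. The knockdown effect on Kcnj11 differed in the same way, by -0.51. Both values are knockdown with PE less knockdown without PE. Of the 9 genes tested no other passed in the edgeR fit of the report, but Kcnh2 passed in 7 other settings. The call of Kcnj11 was lost in 6 of the 12 fits that left out a sample. That of Kcnd2 was lost in limma on log2(FPKM + 1).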

How the results depend on the processing

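The fall of Kcnip2 with PE kept its direction and its call in all settings, with log2 fold changes from -4.48 to -3.55, as did its fall with knockdown, from -1.68 to -1.36 without PE and from -2.24 to -1.17 with PE. Kcnd2 with knockdown under PE kept its call, but its log2 fold change of -2.48 was -0.81 in limma on log2(FPKM + 1). Left-out samples moved the number of genes past the study's threshold for PE in siNeg cells between 1 and 2 and the number called in the interaction between 1 and 3. The groups of the comparison alone and limma on log2(FPKM + 1) gave 1 gene past the threshold for PE in siNeg cells, and the latter gave 3 for PE after knockdown and 0 for the interaction.

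For the ratio of Kcnip2 to Kcnd2 plus Kcnd3 under knockdown, the log2 difference was 0.13 with Kcnd2 alone (reversed), -1.51 with Kcnd3 alone, -1.01 with CPM in place of FPKM (exact permutation p = 0.045) and -0.93 with shared rows summed, and between -1.15 and -0.58 with samples left out. The cause was not tested.

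Values that changed sign were not past the threshold in either setting. Kcnj2 in siSlc39a2 PE against siNeg was 0.01 without a filter. For knockdown, Kcne1 was 0.02 in limma on log2(FPKM + 1) and 0.12 on log2(FPKM + 0.1). For knockdown with PE, Kcnd3 was -0.02, -0.05 and -0.04 in the 3 limma fits, and Kcnj2 was -0.06 and -0.08 in those on FPKM. The interaction of Kcnip2 was 0.29 in limma on log2(FPKM + 1). With samples left out, Kcnq1 with PE ranged from -0.04 to 0.07, and with knockdown Kcnd3 ranged from -0.31 to 0.0, Kcnj3 from -0.1 to 0.0 and Kcne1 from -0.91 to 0.47. Kcnd3 with knockdown under PE ranged from -0.14 to 0.11 and Kcnj2 in siSlc39a2 PE against siNeg from -0.11 to 0.1. The interactions ranged from -0.73 to 0.26 for Kcnip2, -0.01 to 0.31 for Kcnd3 and -0.13 to 0.02 for Kcnj2.

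In each of the 3 limma fits, but not in the edgeR fit of the report, calls were made for Kcnd2 with PE, Kcnj3 with knockdown under PE, Kcnj2 with PE after knockdown, Kcnd3 in siSlc39a2 PE against siNeg and the interaction of Kcnh2, all in the direction given. In edgeR, calls were also made for Kcnj3 (-0.41) and Kcnj2 (-0.29) without siSlc39a2 PE sample 3, for Kcnd3 (-0.39) without siNeg sample 1, and for Kcnh2 without siNeg PE sample 3 (-0.49) or siSlc39a2 sample 3 (-0.51), and DESeq2 called Kcnh2 as well (-0.43). Kcnq1 with PE after knockdown was called in edgeR without siSlc39a2 PE sample 1 (-0.24) or siSlc39a2 sample 3 (-0.22). Limma on log2(count + 1) called it too (-0.19).

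Over all genes, limma on log2(FPKM + 1) took those past the threshold from 922 to 288 for PE, from 1366 to 612 for knockdown, from 1621 to 674 for knockdown with PE, from 1469 to 584 for PE after knockdown, from 4113 to 1983 for both and from 138 to 86 for the interaction. The interaction had 504 genes at the adjusted p, 806 in DESeq2, 889 in limma on log2(FPKM + 1), and 1053 with the replicate block. It had fewer without siNeg sample 2 (269) or 3 (351), or siNeg PE sample 1 (302), 2 (267) or 3 (479). The same held without siSlc39a2 PE sample 1 (452), 2 (281) or 3 (437), or siSlc39a2 sample 1 (255) or 2 (275). More were called without siNeg sample 1 (537) or siSlc39a2 sample 3 (525).

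Same-numbered samples correlated over 0.1 in 8 of 18 pairs (-0.0904 to 0.32), and differently numbered ones between -0.249 and 0.236. Not every pair was over 0.1, so the samples were treated as sharing only a number. However, 4 of 12 samples, number 3 of every group, correlated best with their own number in every other group. Number 1 of siNeg, siNeg PE and siSlc39a2 PE correlated with each other at 0.228 to 0.32, but with number 1 of siSlc39a2 at -0.0107 to 0.0229. This is a hint of pairing from the data and not from the design, and the edgeR fit of the report does not model it. With the replicate block, Kcnh2 passed in the interaction (-0.41, adjusted p = 0.0055) and Kcnq1 with PE after knockdown (-0.15, adjusted p = 0.0231), and no other call on the 9 genes changed. Kcne1 and Kcna5 are limited by depth.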
